A study of Mus musculus with 16 samples.

Results

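The data described here are the baseline transcriptome of tibialis anterior, a fast muscle of the mouse hind limb, in the vehicle-treated mice of a study of the hormone GDF15. The members were the 5 libraries labelled vehicle (1 library per mouse, mouse 1 to mouse 5 by the replicate number in the label) of 16 libraries in the whole table, and no group was compared with another. The vehicle mice were male wild-type C57BL/6 animals (C57BL/6J in the study's methods) that had been fed a diet high in fat and fructose, which induces steatohepatitis, from 8 weeks of age and were housed at 29 °C. They therefore represent fat-fed muscle near thermoneutrality and not muscle of lean mice on chow. The other 11 libraries, from mice that received recombinant GDF15 under the skin each day or that were pair-fed to them, came from mice on the same diet, strain and housing and enter no value below.

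A skeletal muscle fibre is packed with sarcomeres, in which myosin thick filaments pull on actin thin filaments. Calcium released from the sarcoplasmic reticulum binds troponin C and lets the filaments slide, and the SERCA pump takes the calcium back up. Fast glycolytic fibres make the IIb myosin (Myh4), fast fibres of intermediate type the IIx myosin (Myh1), fast oxidative fibres the IIa myosin (Myh2) and slow fibres the type I myosin (Myh7). Most proteins of this apparatus come in families of paralogues, so the choice of paralogue describes the type of muscle.

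The deposited values were transformed back to normalized counts (reads per gene after the authors' scaling between libraries). Family shares and levels given in ppm or per length were divided by transcript length. Here ppm are parts of each library's length-corrected total when that total is set to 1000000. Counts, shares of counts and sums of marker lists were not divided, so they also depend on the lengths of the transcripts. A value with ± is the mean and SD of the 5 mice. The table held 14538 genes, of which 11822 reached a mean of 10 normalized counts and 20 were at 0 in all 5 mice, and 1271 were at 0 in at least 1 mouse. For genes with only 1 annotated transcript, 92.6% to 96.6% of the low values in a library lay within 0.1 of a whole multiple of what 1 read is worth, and that unit placed the depth at about 11858000 to 15036400 reads assigned to genes per library. Any 2 of the libraries differed by more than 2-fold in 2.28% to 3.57% of the 11822 genes, and the median difference of a gene between 2 mice was 0.14 to 0.16 on the log2 scale, so no library was a copy of another.

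A few genes of contraction and of energy supply held a large part of the RNA. The 10 genes with the most reads took 25.4% ± 0.553 of all normalized counts (24.6% to 26%), and 131 ± 8.81 genes (120 to 143) were enough to hold 50% of them. Myh4 alone took 5.66% to 7.17% of the counts. After length correction, the 10 leading genes held 27.7% ± 0.456 and the leading 100 genes held 52.1% ± 0.45 of the total. In all, 14 genes had a mean above 100000 normalized counts, and 8053 reached a mean of at least 100.

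Acta1, the actin of skeletal muscle, and Tnnt3, the fast isoform of troponin T, stood at the top of the length-corrected order. Acta1 reached 48945 ± 1222 ppm and Tnnt3 47857 ± 1250 ppm, and Acta1 was the higher of them in 3 of 5 mice, so their order was not settled. Both lay clear of the next genes, Atp2a1 (28546 ± 734 ppm), which encodes the fast SERCA pump, and Aldoa (27540 ± 541 ppm), the muscle aldolase of glycolysis. Tnnc2 and Tnni2, the fast troponins C and I, followed at 24197 ± 649 and 19628 ± 349 ppm, with Myh4 (23146 ± 2040 ppm) and the fast essential light chain Myl1 (21377 ± 1179 ppm) between them. Ckm, the cytosolic creatine kinase of muscle, Pvalb, the calcium buffer parvalbumin, and Tpm1, alpha-tropomyosin, lay together at 17871 ± 494, 17847 ± 660 and 17424 ± 765 ppm, with overlapping ranges. Of the 29 pairs of neighbours among the 30 leading genes, 21 had overlapping ranges over the 5 mice, and the 8 steps without overlap included the drop from Gapdh (13760 to 15199 ppm) to Eno3 (8340 to 9476 ppm) and from Pygm (6834 to 7203 ppm) to Slc25a4 (4819 to 5167 ppm).

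**Figure D1:**
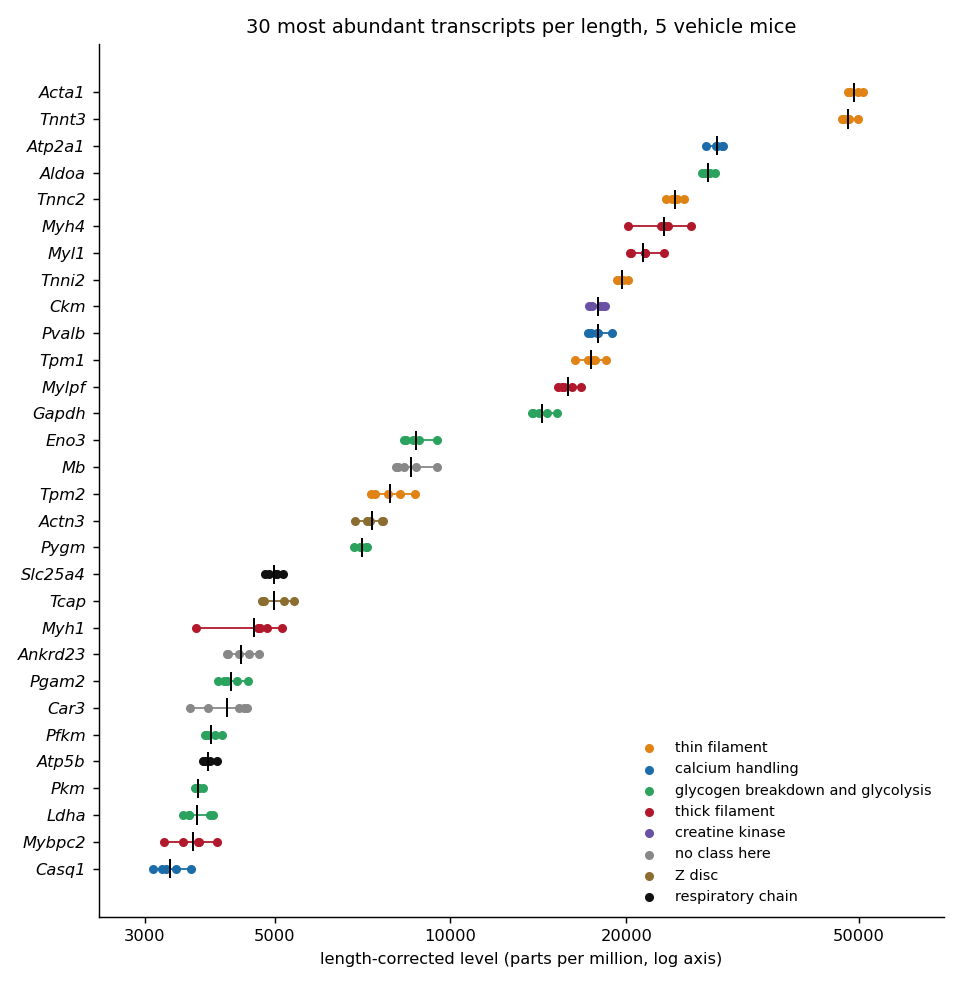
Length-corrected level in ppm (log axis) of the 30 genes with the highest means. Each point is 1 vehicle mouse, the line joins the lowest and highest mouse, the black tick is the mean, and the colour gives the class of the gene. Acta1 and Tnnt3 (means of 48945 and 47857 ppm) lie clear of Atp2a1 and Aldoa, and Myh4, Myh1, Car3 and Mybpc2 have wide ranges among the leading genes.

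By class, the thin filament was the largest after length correction, with 16.8% ± 0.294 of the total in 16 genes. Without it the thick filament was larger (10.7% against 9.83% of counts), and the respiratory chain and ribosomal proteins stood at 3.55% and 1.3%. Glycogen breakdown and glycolysis took 8.09% ± 0.117 in 21 genes, the thick filament 7.29% ± 0.314 in 14 genes and the nuclear-encoded respiratory chain 6.96% ± 0.157 in 78 genes. Excitation-contraction coupling and calcium handling held 5.77% ± 0.132, cytosolic ribosomal proteins 3.36% ± 0.0788, the Z disc with titin and intermediate filaments 2.75% ± 0.072 and the creatine kinase and adenylate group 2.44% ± 0.055. The citric acid cycle (1.28% ± 0.0481), fatty acid uptake and oxidation (1.05% ± 0.102) and translation factors (0.616% ± 0.0181) were the smallest. Together, the 325 genes of these 11 classes held 56.4% ± 0.419 of the length-corrected total, and the 57 sarcomeric genes 26.8% ± 0.508. None of the 15 genes encoded in mitochondria that were listed had a row in the table used here, so all shares are of nuclear transcripts.

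The myosin heavy chains Myh1 (CV 12.8%) and Myh4 (CV 9.73%) varied more between mice than the other sarcomeric genes among the 30 leading genes. Myh4 carried 924279, 703813, 855889, 818045 and 813343 normalized counts in mice 1 to 5, with the lowest value in mouse 2. Myh1 carried 174894, 166269, 188359, 166146 and 131259 counts, with the lowest in mouse 5, and Myh2 carried 22464, 29607, 36579, 23383 and 26006 counts, with the highest in mouse 3. In share of the length-corrected family, Myh4 held 80.8% ± 2.26, Myh1 16.1% ± 1.87 and Myh2 2.69% ± 0.591, and the 3 ranges did not overlap. Myh7, the slow type I chain, held 105, 56.1, 42.1, 105 and 108 counts, or 2.26 ± 0.862 ppm against 23146 ppm for Myh4. The non-muscle chains Myh9 (28.6 ppm) and Myh14 (24.9 ppm) and the smooth muscle chain Myh11 (18.2 ppm) were each higher than Myh7. Myh3 and Myh8, the embryonic and neonatal chains, had the lowest means of the 13 members, although the ranges of Myh7, Myh8 and Myh3 overlapped, with 37.9 to 61.6 and 59.4 to 90.9 counts.

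The 3 abundant heavy chains are neighbours on the plus strand of chromosome 11 (GRCm38), with Myh2 at chr11:67171027-67197517, Myh1 at chr11:67200052-67224575 and Myh4 at chr11:67238029-67260446, and Myh3, Myh8 and Myh13 flank them in the same cluster. To show what the start sites of a leading and of a minor paralogue look like, the 100 bases before the RefSeq start (GRCm38.p6) are given for this cluster and for 3 further families, each 5′ to 3′ on the strand of the gene. Capitals mark 3 motifs: TATAAA, the letters of a TATA box, CANNTG, the E-box bound by myogenic factors, and the CArG box bound by serum response factor. A TATAAA can lie inside a CArG box. The CArG box was added after the values were known. The RefSeq start of Myh4 lies 217 bases before the GENCODE one, and that of Myh1 50 bases after it. The heavy chain stretches lie on the plus strand of chr11:67237712-67237811 for Myh4, the plus strand of chr11:67200002-67200101 for Myh1 and the plus strand of chr11:67170927-67171026 for Myh2.
Myh4: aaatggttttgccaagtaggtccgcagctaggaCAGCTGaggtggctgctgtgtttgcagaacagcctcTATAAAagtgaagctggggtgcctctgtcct
Myh1: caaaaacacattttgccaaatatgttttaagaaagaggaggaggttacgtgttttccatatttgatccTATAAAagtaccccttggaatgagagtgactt
Myh2: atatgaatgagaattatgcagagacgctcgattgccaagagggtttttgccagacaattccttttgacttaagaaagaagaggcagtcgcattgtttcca

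Myh4 and Myh1 had 1 TATAAA each in these stretches and Myh2 none, and Myh4 had 1 CANNTG. For the troponin C, actin and creatine kinase families, the leading member is followed by a minor one. The stretches lie on the minus strand of chr2:164779735-164779834 (Tnnc2), the plus strand of chr14:31208212-31208311 (Tnnc1), the minus strand of chr8:123894776-123894875 (Acta1), the minus strand of chr2:114052876-114052975 (Actc1), the plus strand of chr7:19410994-19411093 (Ckm) and the minus strand of chr12:111672339-111672438 (Ckb).
Tnnc2: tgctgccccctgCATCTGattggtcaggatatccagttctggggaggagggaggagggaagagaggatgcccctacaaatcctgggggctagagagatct
Tnnc1: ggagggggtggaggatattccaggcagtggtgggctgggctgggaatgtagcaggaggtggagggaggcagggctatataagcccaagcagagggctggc
Acta1: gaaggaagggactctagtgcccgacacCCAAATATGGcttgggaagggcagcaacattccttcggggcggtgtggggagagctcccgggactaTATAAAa
Actc1: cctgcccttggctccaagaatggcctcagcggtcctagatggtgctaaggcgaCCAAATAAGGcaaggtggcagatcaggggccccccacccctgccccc
Ckm: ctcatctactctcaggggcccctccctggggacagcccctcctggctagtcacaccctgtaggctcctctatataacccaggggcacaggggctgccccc
Ckb: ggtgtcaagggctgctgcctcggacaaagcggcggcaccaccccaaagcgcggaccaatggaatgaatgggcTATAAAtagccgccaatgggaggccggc

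Acta1 and Actc1 each held 1 CArG box in the printed bases, and Acta1 and Ckb held 1 TATAAA each. Only the exact letters TATAAA were counted, so the similar tatataa in the Ckm and Tnnc1 stretches was not marked. Among the 100 genes with the highest ppm, 75 had a promoter sequence, and 12 of these (16%) held TATAAA on either strand within 250 bases before the start, against 816 of 11460 (7.12%) of all genes with a promoter. CANNTG, which reads the same on both strands, was in 58 of the 75 (77.3%) and in 6654 of 11460 (58.1%), and the CArG box in 2 of 75 (2.67%) and 136 of 11460 (1.19%). TATAAA lying wholly between 40 and 20 bases before the start was found in 3 of 75 (4.0%) and in 166 of 11460 (1.45%). These are counts of letters, which say nothing of binding.

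Acta1 and Tnnt3, the leading thin filament genes, were even between mice. Acta1 had 415845, 409326, 446088, 409907 and 427891 normalized counts and Tnnt3 253280, 245015, 250282, 241762 and 260099 counts, a CV of 3.67% and 2.87%. The troponins were nearly pure in type. Tnnc2 held 99.97% of the troponin C family, with 95971 to 104669 counts against 28.4 to 42.4 counts for Tnnc1, the slow and cardiac isoform. Tnni2 held 99.97% of troponin I, with 84700 to 89919 counts against 28.1 to 31.8 for the slow Tnni1 and 1.19 to 4.76 for the cardiac Tnni3. Tnnt3 held 99.95% of troponin T, above Tnnt1 (75.9 to 125 counts), the slow isoform, and Tnnt2 (28.2 to 60.7 counts), the cardiac one. Per length, the fast member exceeded the next by 3043-fold for troponin C, 4202-fold for troponin I and 2773-fold for troponin T. The heart actin Actc1 had 981, 1239, 1492, 834 and 1526 counts, 138 ± 34 ppm or 0.278% of the actins, beside Actg1 (237 ppm) and Actb (231 ppm), the cytoplasmic actins, whose ranges overlapped. Neb, which encodes the thin filament ruler nebulin, reached 564 ± 19.4 ppm.

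Tropomyosin was not of a single type. Tpm1 held 68.6% ± 2.33 and Tpm2, beta-tropomyosin, 31.1% ± 2.34 of the family, with 188468 to 209804 and 90290 to 110856 counts. Tpm3, the slow isoform, had 492 to 657 counts.

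In the thick filament, each kind of light chain was dominated by 1 member. Myl1 held 97.8% ± 0.198 of the essential and Mylpf, the fast regulatory light chain, 99.43% ± 0.0768 of the regulatory light chains. Myl3, the slow essential chain, had 826, 886, 876, 395 and 707 counts, with mouse 4 well below the others. Myl2, the slow regulatory chain, had 183, 20.9, 183, 22.6 and 35.8 counts, so mice 1 and 3 lay 5-fold or more above the other mice. Myh7 did not follow that pattern, since it was lowest in mouse 3 and at 105 to 108 counts in mice 1, 4 and 5. Myosin binding protein C was shared between the fast Mybpc2 (68.4% ± 2.4) and the slow Mybpc1 (31.6% ± 2.4), with 68491 to 86403 and 35152 to 48577 counts. Of the M band proteins, Myom1 held 52.0% ± 0.936 and Myom2 47.3% ± 0.954, the former higher in every mouse by 1.05- to 1.17-fold per length, and Myom3 0.666% ± 0.228. Mybph, a small relative of Mybpc, had 3167 counts in mouse 1 and 1157 to 1697 counts in the other mice.

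At the Z disc, Actn3, the alpha-actinin of fast fibres, had 132968, 121912, 127688, 130003 and 118039 counts, or 7331 ± 333 ppm, and 90.2% ± 1.19 of its family, and Actn2, the alpha-actinin of all fibres, 9.26% ± 1.18. Tcap (telethonin) reached 4986 ± 292 ppm, Myoz1 (calsarcin 2) 3299 ± 108, Des (desmin) 2658 ± 99.7 and Myot (myotilin) 1432 ± 43.9 ppm. Ttn, which encodes the giant protein titin, was measured at 11007, 10416, 11046, 10026 and 10633 counts, which over a principal transcript of 100404 bases is 17.8 ± 0.513 ppm, against 564 ppm for Neb. How reads of very long transcripts were assigned is not given in the sources used here.

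Calcium handling rested on the fast isoforms too. Atp2a1 had 595691, 580276, 616451, 598601 and 566293 counts and 99.90% of SERCA, and per length it exceeded Atp2a2, the slow and cardiac pump (493 to 620 counts), by 1390-fold. Casq1 held 98.3% ± 0.2 of calsequestrin, the calcium store of the reticulum, and Ryr1 99.98% of the ryanodine receptors, the release channel, at 653 ± 28.7 ppm. Its voltage sensor Cacna1s stood at 545 ± 19.9 ppm and 99.65% ± 0.148 of its family. Pvalb, which buffers calcium in fast fibres, had 97473 to 109441 counts.

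Of the small peptides that bind SERCA, which are of interest in a study of calcium cycling, 3 were measured, and they differed widely in level. Mrln (myoregulin) had 372, 374, 344, 382 and 386 counts, or 141 ± 7.76 ppm, and 94.9% ± 0.975 of the 3 peptides measured. Pln (phospholamban) had 41.0, 45.9, 35.3, 32.5 and 58.0 counts, 5.75 ± 1.38 ppm. Sln (sarcolipin) had 17.4, 13.0, 17.7, 9.03 and 17.6 counts, 1.9 ± 0.471 ppm, so few reads stood behind each value. The ratio of Mrln to Pln per length ran from 18.7 to 32.9 over the mice, and the ranges of the 3 peptides did not overlap. Atp2a1, the pump they bind, stood at 28546 ppm. The further peptides Strit1, Erln and Arln had no row in the table used here.

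**Figure D2:**
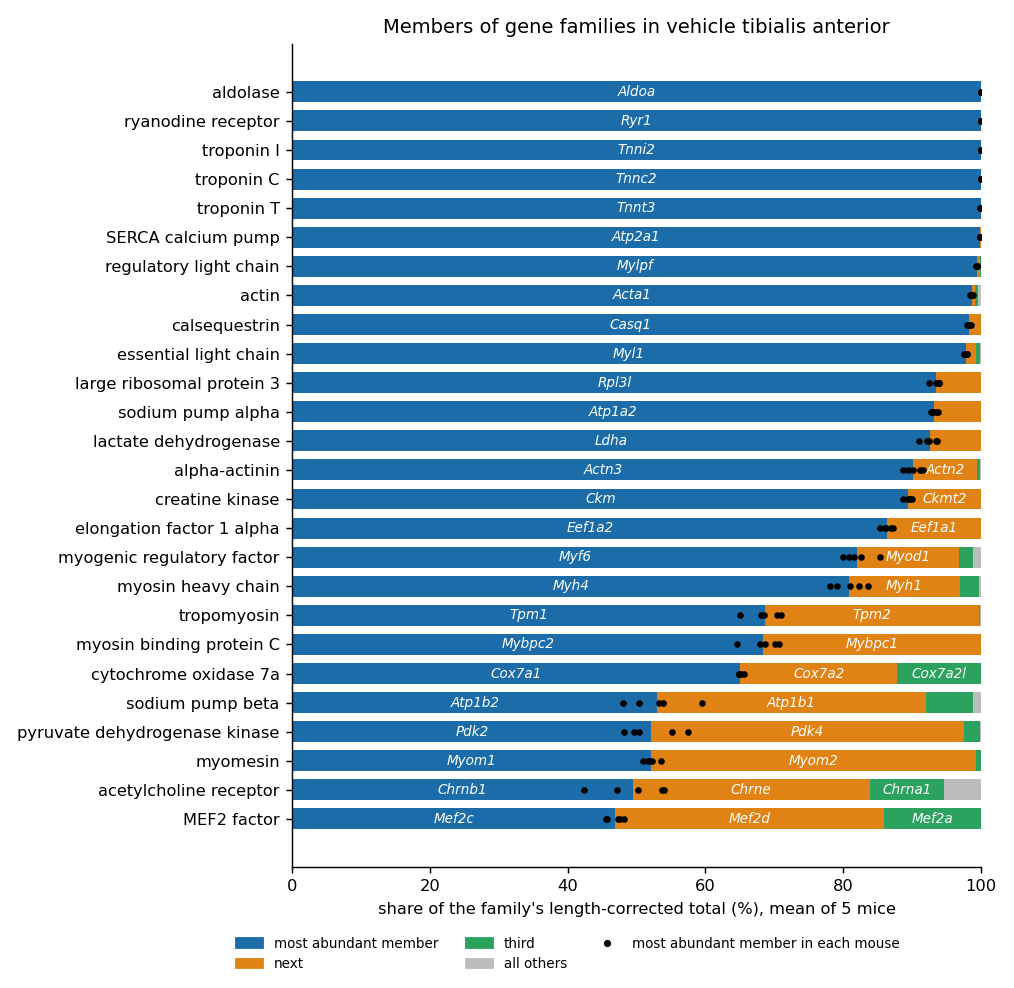
Make-up of 26 gene families, as the mean percent of the length-corrected family total over the 5 vehicle mice (0 to 100%). Colours give the most abundant, the next, a further and all remaining members, and black points give the most abundant member in each mouse. Troponins, SERCA, ryanodine receptors and aldolase were above 99% in 1 member, whereas myomesin, the pyruvate dehydrogenase kinases and the MEF2 factors were shared.

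Of the 53 families that had at least 2 members in the table, most were dominated by 1 paralogue. The lead held at least 90% in 34 families and at least 99% in 13, and was under 60% in 6. It was the same gene in all 5 mice in 52 families. The exception was pyruvate dehydrogenase kinase, which restrains glucose oxidation, where Pdk2 had 9027 to 9793 counts and Pdk4, the isoform raised by fasting and by fat, had 14963, 14079, 14274, 11236 and 9695 counts. Per length the ratio of Pdk2 to Pdk4 was 0.97, 1.03, 1.06, 1.3 and 1.44, so Pdk4 led in mouse 1 only, and mice 4 and 5 had the lowest Pdk4. By plain counts, without length correction, Pdk4 was the larger of them in all 5 mice.

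Among glycolytic enzymes, Aldoa had 239797, 233407, 239166, 243731 and 241688 counts, a CV of 1.62%. Gapdh followed at 14318 ± 593 ppm, Eno3, the muscle enolase, at 8732 ± 461 and Pygm, the muscle phosphorylase that opens glycogen breakdown, at 7047 ± 149 ppm. Pgam2, Pfkm, Pkm and Ldha lay between 3685 and 4211 ppm. The muscle form held 99.94% ± 0.0267 of the phosphorylases, 99.71% ± 0.0812 of phosphofructokinase (Pfkm), 99.53% ± 0.0553 of phosphoglycerate mutase (Pgam2) and 98.98% ± 0.0615 of enolase. Hexokinase, the entry step for glucose, was lower by far, with Hk2 at 145 ± 7.08 ppm and 93.8% ± 0.627 of its family. Ldha held 92.6% ± 1.03 and Ldhb, the heart-type subunit, 7.44% ± 1.03, a ratio of 10.2 in mouse 2 and of 11.7 to 14.7 in the other mice. The glucose transporter Slc2a4 (GLUT4) had 6441 to 7363 counts and 96.5% ± 0.259 of its family, and Slc16a3, which exports lactate, 91.1% ± 0.956 of the monocarboxylate transporters.

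Phosphate buffering was carried by Ckm, with 287440, 289877, 287630, 294630 and 300026 counts, a CV of 1.84%. Ckm held 89.4% ± 0.494 and Ckmt2, the mitochondrial form, 10.5% ± 0.495 of the creatine kinases, and the brain form Ckb had 53.3 to 99.99 counts. Ak1, the cytosolic adenylate kinase, reached 1497 ± 53.7 ppm and Ampd1, the AMP deaminase of muscle, 1286 ± 52.1 ppm.

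All 78 respiratory chain genes listed were measured, and they were the most even class, with a median SD of 0.05 on the log2 scale and none above 0.19 (Cox8a). Slc25a4, the ADP/ATP carrier, led at 4992 ± 135 ppm, ahead of the ATP synthase subunits Atp5b (3846 ± 82.6) and Atp5a1 (2515 ± 83.7). The muscle forms led the cytochrome oxidase families, Cox6a2 with 97.6% ± 0.105, Cox8b with 95.5% ± 0.569 and Cox7a1 with 65.1% ± 0.314. Mdh2, the mitochondrial malate dehydrogenase of the citric acid cycle, stood at 1517 ± 72.2 ppm. Mb, the oxygen store myoglobin, stood at 8543 ± 584 ppm, among the 15 highest genes. Car3, the carbonic anhydrase of muscle, had 45149, 43592, 44440, 38136 and 35783 counts, lower in mice 4 and 5.

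Fatty acid genes were less even, with a median SD of 0.12. Fabp3, the fatty acid binding protein of muscle and heart, had 13983, 15031, 10246, 12405 and 12549 counts, highest in mouse 2 and lowest in mouse 3. The class share was 0.926% in mouse 3 and 1.21% in mouse 2, with 1.03% to 1.05% in the others. Lpl, which frees fatty acids from lipoproteins, was highest in mouse 2 as well (9958 counts, against 6754 to 8137). Cpt1b held 98.2% ± 0.0877 of carnitine palmitoyltransferase 1, the gate to mitochondrial oxidation, and Ucp3 97.9% ± 0.348 of the uncoupling proteins measured, with 2494 to 3017 counts. Ucp1 had no row in the table used here.

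Muscle paralogues also led in translation. Rpl3l, the muscle form of a large-subunit ribosomal protein, had 7252, 6931, 7802, 6974 and 6940 counts against 444 to 551 for Rpl3, or 93.5% ± 0.609 per length. Eef1a2 held 86.4% ± 0.78 of elongation factor 1 alpha over Eef1a1. Ribosomal proteins ranged from Rps2 (1294 ± 52.6 ppm) and Rplp1 (1261 ± 55 ppm) to Rps27 (4.92 ppm, 4.34 to 20.3 counts). Many of these have near-identical copies in the genome, and the low members are uncertain, since reads of such copies could be split between them.

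Of the myogenic regulatory factors, Myf6 held 82.1% ± 2.09, with 910 to 1068 counts, above Myod1 (210 to 323 counts), Myog (15.7 to 39.7) and Myf5 (12.8 to 28.1). Mef2c (46.8% ± 1.17), Mef2d (39.0% ± 1.63) and Mef2a (14.1% ± 0.832) were all present, and their ranges did not overlap. Among the acetylcholine receptor subunits of the endplate, the adult epsilon subunit Chrne had 154 to 246 counts and the fetal gamma subunit Chrng 0.49 to 2.9, at or below what 3 reads give.

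For the hormone and adrenergic signals that the study addressed, few receptors were measured. Adrb3, the beta3-adrenergic receptor, had 0 to 10.9 counts, and Adrb1 had no row in the table used here, nor did Gdf15 or its receptor gene Gfral. Ret, which signals with GFRAL, had 37.1 to 65.5 counts, 1.48 ppm.

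The balance between paralogues of fast and of more oxidative fibres differed from mouse to mouse. The pairs were chosen after the values were known, so an order that they share is a description only. The ratio of Myh4 to Myh2 per length was 41.7, 24.1, 23.7, 35.5 and 31.7 in mice 1 to 5. Actn3 to Actn2 gave 11.7, 8.9, 8.28, 10.9 and 9.65, and Mybpc2 to Mybpc1 gave 2.42, 2.12, 1.82, 2.34 and 2.19. In all 3 ratios the order of the mice was 1, 4, 5, 2 and 3. The summed red cell markers were also highest in mice 1 and 4, at 5071, 404, 426, 3807 and 673 counts in mice 1 to 5, and their part in the ratios was not tested. Tpm1 to Tpm2 (2.48, 2.2, 1.88, 2.4 and 2.16) was likewise highest in mice 1 and 4 and lowest in mouse 3. Myh4 to Myh1 (5.33, 4.27, 4.58, 4.96 and 6.25) had another order, with mouse 5 highest. Other pairs went against it as well. The share of Atp2a2 in the SERCA pumps was highest in mouse 1 (0.0805%) and lowest in mouse 3 (0.062%), and the ratio of Ldha to Ldhb was 14.2 in mouse 3 and lowest in mouse 2. With 5 mice no correlation between these ratios was computed.

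**Figure D3:**
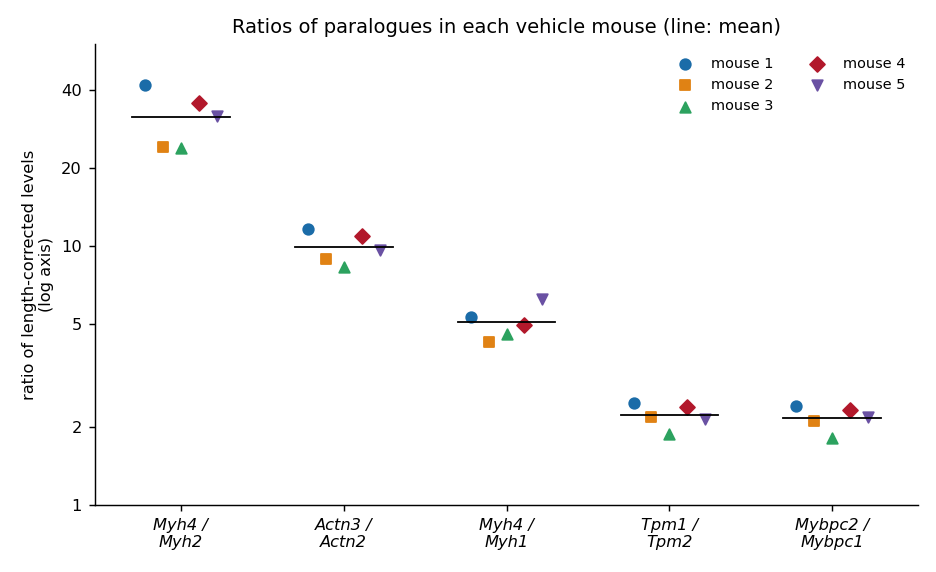
Ratio of the length-corrected levels of 5 pairs of paralogues (log axis) in each vehicle mouse, with the mean as a line. Mouse 1 is highest and mouse 3 lowest for Myh4/Myh2, Actn3/Actn2, Tpm1/Tpm2 and Mybpc2/Mybpc1, while mouse 5 is highest for Myh4/Myh1.

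Mouse 3, with the lowest ratios of Myh4 to Myh2, Actn3 to Actn2, Mybpc2 to Mybpc1 and Tpm1 to Tpm2, had the highest count in 7 of 17 slow fibre genes, and the lowest in 4, whereas over the 8053 genes that averaged 100 counts or more it was highest in 22.8% and lowest in 19.6%. Myoz2, the calsarcin of slow fibres, had 685 counts in mouse 3 and 382 to 403 in the others. Csrp3, the muscle LIM protein, had 412 counts in mouse 3 and 214 to 296 in the others. Ankrd2, a stretch-responsive protein of slow fibres, had 1171 counts there and 749 to 911 elsewhere. Outside that list, Fhl1, a LIM protein, had 13500 counts in mouse 3 and 8410 to 9524 in the others, and Myom3 548 and 213 to 366. The 4 genes of the list that were lowest in mouse 3 were Myh7 (42.1 counts, against 56.1 to 108 in the others), Atp2a2 (493, against 512 to 620), Lrrc2 (1937, against 1999 to 2180) and Tnni1 (28.1, against 28.3 to 31.8), the last of these by little. The summed slow fibre list was 7830 counts in mouse 3 and 6336 to 7312 in the others.

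Markers of other cell types showed which cells contributed RNA. In bulk tissue, fewer cells of a type and less RNA per cell cannot be told apart. The 6 myofibre genes listed held 8.62% of all counts and differed by 1.05-fold between the lowest and the highest mouse. Pericyte and smooth muscle genes summed to 8093 to 9232 counts, mostly Rgs5, a pericyte gene, with 5313 to 6043 counts. Endothelial genes summed to 6336 to 7441 counts in 9 genes, led by Cdh5 (1496 to 1942 counts), the cadherin of endothelial junctions. Neither list varied by more than 1.17-fold. Satellite cell genes (446 to 486 counts), among them Pax7 (37.2 to 48.6 counts), varied by 1.09-fold in sum, most of which was Cdh15 (285 to 315 counts), a cadherin, while Calcr (4.14-fold) and Myf5 (2.2-fold) of the 5 genes varied by more than 2-fold at few counts.

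Lists of connective tissue and immune cells varied more. Fibroblast genes summed to 4316, 7005, 3650, 5606 and 5937 counts in mice 1 to 5. All 7 were highest in mouse 2, which was highest in 18.4% of the 8053 genes. Col3a1, a collagen, had 674, 1407, 591, 884 and 1093 counts and Dcn, the proteoglycan decorin, 1647, 2598, 1489, 2497 and 2304. Macrophage genes summed to 349 to 618 counts in 9 genes, and 7 were highest in mouse 2. Schwann cell genes summed to 706 to 1059 counts and were highest in mouse 4 in 4 of 8. Mouse 3 was lowest in 6 of the 8 Schwann cell genes and in 6 of the 7 fibroblast genes, against 19.6% of the 8053 genes. The neuromuscular junction genes were highest in mouse 4 in 6 of 7, among them Chrne, Musk, Colq and Etv5, and mouse 4 was highest in 17.9% of the 8053 genes. Their sum was 3157 counts in mouse 4 and 2679 to 2959 in the others, of which Prkar1a, a widely expressed regulatory subunit of protein kinase A, made up 1903 to 2043.

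Red cell and fat cell genes differed several-fold between mice. Hba-a1, an alpha-globin, had 2832, 231, 247, 2160 and 381 counts, and Hbb-b1, a beta-globin, 1925, 144, 154, 1426 and 254. Mice 1 and 4 were thus 5-fold or more above the others, and Hbb-bt and Alas2 were likewise high in mice 1 and 4. The ratio of Hba-a1 to Hbb-b1 stayed between 1.47 and 1.61. White adipocyte genes summed to 402, 169, 255, 85.8 and 214 counts. Adipoq (adiponectin) had 112, 21.6, 67.1, 10.8 and 30.9 counts and Lep (leptin) 94.1, 13.9, 15.7, 7.21 and 10.9, with mouse 1 highest and mouse 4 lowest for both, as for Plin1 and Cidec. The other members, Cfd (44.7, 62.5, 85.2, 31.9 and 79.3 counts), the adipokine adipsin, and Retn (4.34 to 11.8 counts), resistin, were not highest in mouse 1, and Retn was higher in mouse 4 than in mouse 1.

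Markers of several other cell types were near 0. Cd3d of T cells had 0 to 2.09 counts, Slc5a7 of motor neurons 0 to 2.34 and Alb of hepatocytes 0 to 2.7, all at or below the 2.51 to 3.26 normalized counts that 3 reads give in these libraries. B cell genes summed to 0 to 13.3 counts. Others were above that level. The neutrophil genes S100a8 and S100a9 summed to 47.8 counts in mouse 3 and to 2.59 to 7.53 in the others. The keratinocyte gene Krt10 had 13.3 to 25.5 counts.

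**Figure D4:**
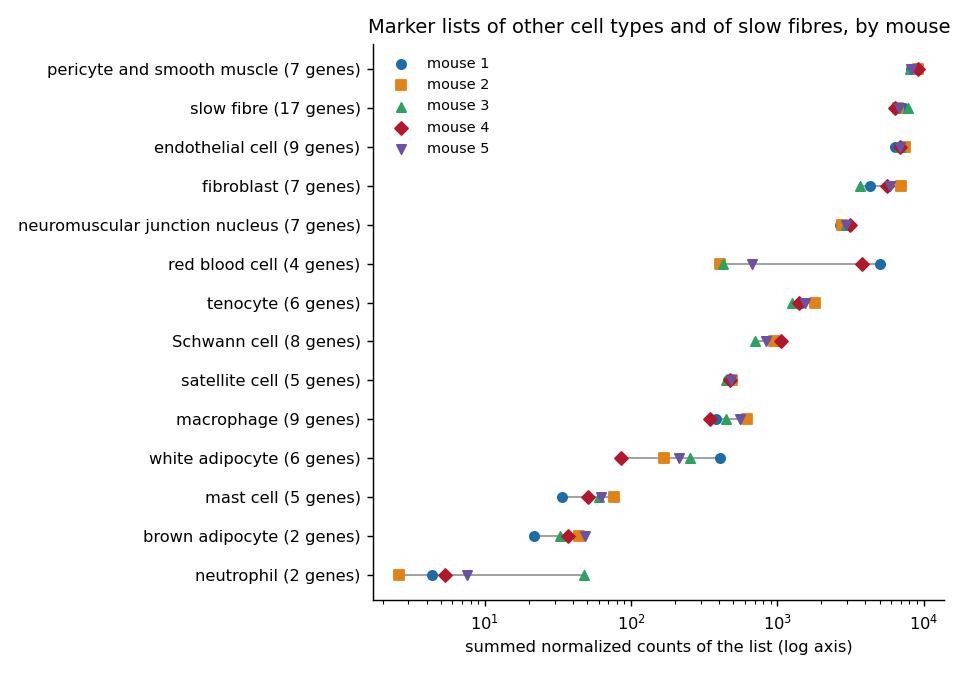
Summed normalized counts (log axis) of 14 marker lists in each vehicle mouse, with the number of genes measured in each list. Red cell genes span 404 to 5071 counts and white adipocyte genes 85.8 to 402 counts, while satellite cell, endothelial, and pericyte and smooth muscle genes lie close together.

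Across genes, the 5 mice differed little. The SD of log2(normalized count + 1) had a median of 0.15 over the 11822 genes (0.06 at the 10th and 0.43 at the 90th percentile) and of 0.11 over the 8053 that averaged 100 counts or more. It fell with level, from a median of 0.41 at means of 10 to 30 counts to 0.10 at 300 to 1000 and 0.06 above 3000. Counting reads alone would give 0.33, 0.06 and at most 0.02 at these levels, so below about 30 counts most of the spread was of the size of counting error, whereas among abundant genes it was several times larger. Of the 8053 genes, 3527 (43.8%) had an SD under 0.1 and 61 (0.757%) an SD over 0.5.

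**Figure D5:**
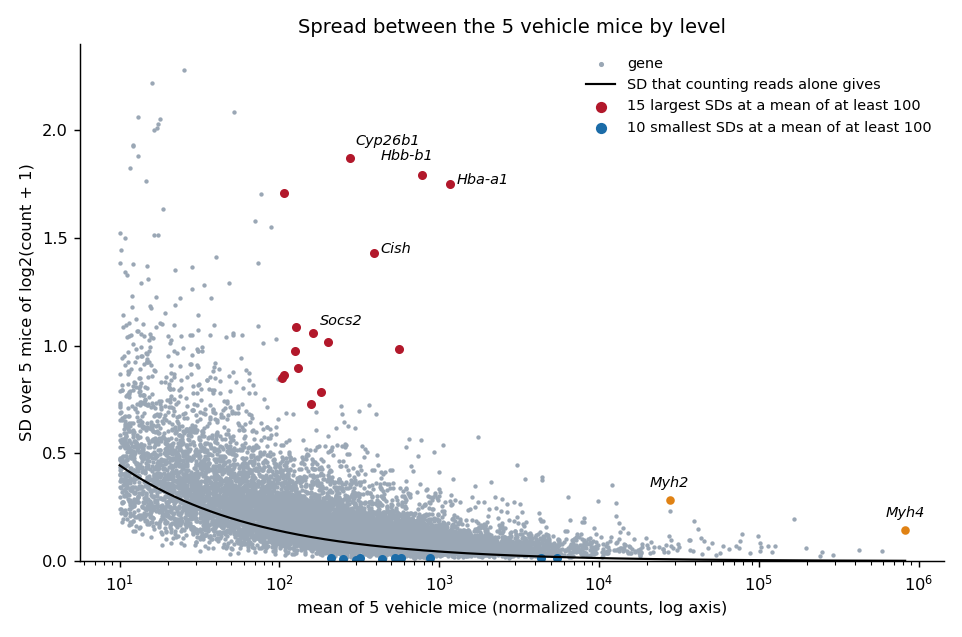
SD over the 5 vehicle mice of log2(normalized count + 1) against the mean count (log axis) for the 11822 genes averaging 10 counts or more. The black line is the SD that counting reads alone gives; red and blue points are the 15 largest and 10 smallest SDs at a mean of at least 100. Cyp26b1 and the globins lie at 1.71 to 1.87, and the SD falls as the mean rises.

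The most variable of the 8053 genes was Cyp26b1, which degrades retinoic acid, with 504, 345, 329, 18.8 and 177 counts (SD 1.87), low in mouse 4. The globins came next (1.71 to 1.79). Cish and Socs2, which are induced by growth hormone through STAT5 and feed back on it, had 92.7, 101, 805, 529 and 431 counts and 47.0, 91.8, 338, 164 and 169 counts. Mice 1 and 2 were the lowest and mouse 3 the highest for both. Depp1, a gene induced by FOXO factors, had 76.4, 178, 305, 230 and 116 counts, highest in mice 3 and 4 and lowest in mouse 1. Fasn, the fatty acid synthase, had 83.2, 105, 153, 35.6 and 157 counts, lowest in mouse 4. Of the 6 white adipocyte genes, 5 were lowest in mouse 4 as well, against 19.5% of the 8053 genes. Mouse 1 had the highest white adipocyte sum (402 counts) but less Fasn than mice 2, 3 and 5. The part of fat cells in the Fasn values was not tested.

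In some others of the 15 most variable genes, 1 mouse lay far from the rest. Impa2, an inositol monophosphatase, had 323 counts in mouse 2 and 68.0 to 96.2 in the others, and Itpr3, a calcium release channel, 253 counts in mouse 4 and 62.3 to 71.7 in the others. Mdn1 had 295 counts in mouse 5 and 57.6 to 138 in the others, and Pou2f1 474 in mouse 4 and 81.3 to 199 in the others. Ppp1ccb (43.4 to 225) and Rap1gap (72.5 to 241) were also among the 15, with values spread over the mice. At the other end, Sra1 had 301 to 303 counts, Nr1h3, the oxysterol receptor LXR alpha, 248 to 253 and Coq9, a factor of coenzyme Q synthesis, 5371 to 5480. Srprb, Arl2, Cyb5d1, Mrps28, Arpc2, Gyg and Sugp1 had SDs of 0.01 to 0.02 as well.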

How the data were processed

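RNA of tibialis anterior was sequenced as 2 × 50 bp reads from a directional library. Per the labels and methods, the authors used Trim Galore for trimming, Salmon for quantification against mm10 and DESeq2 for normalization, whose versions, annotation and gene filter are not given in the sources used here. Salmon estimates counts, so reads of near-identical paralogues may be split between them. The deposited values are log2-scale, variance-stabilised values with a lowest value of 7.32, which was read as a count of 0. Normalized counts were obtained by inverting the transformation, whose exact form is not given in the sources used here. The inversion was run on simulated data. Such data follow the form they were made with, so they cannot show which form the deposited values follow.

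Lengths were medians of APPRIS principal transcripts (GENCODE vM21, GRCm38), found for 14471 of 14538 genes. They replaced the planned median of all coding transcripts, which was truncated for long genes such as Neb and Ttn. Promoters came from RefSeq. Python 3.11.15, numpy 2.4.6 and pandas 2.3.3 were used.

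There was 1 group, so results are means, SDs and ranges over 5 libraries and no test between groups was made. Dixon's criterion for a single outlying library was applied to the values in the closing section, and 2 genes were set apart where their ranges did not overlap. Spread used log2(count + 1) for genes with a mean of at least 10. Named were the 30 highest genes per length, leading family members and members with at least 1% of a family, the 15 most and 10 least variable genes with a mean of at least 100, and the leading markers of each list. Others, such as Fhl1, Myom3, Mybph, Lpl and the ratio pairs, were chosen after their values were seen. Members and lists were chosen with earlier results of these data known. In libraries of this depth 3 reads equal 2.51 to 3.26 normalized counts, and such limits cover counting error only. Alternatives were other lengths, reading the values as plain log2, other scalings, pseudocounts and minimum counts, and leaving out each library. A few genes that the naming rule selects are not reported here.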

Additional observations from a re-analysis of the deposited data

Results flagged for a closer look

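Of 268 values looked at, 14 (5.22%) had 1 mouse far from the other 4 by Dixon's 95% criterion, which chance alone gives in about 1 of 20 groups, and 487 of the 8053 genes averaging 100 counts or more (6.05%) did so. Many of the 268 values share genes, and some genes were named because of their spread.

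Mouse 3 stood apart in 10 of the 14, but some of these share the same counts. How often mouse 3 was the outlying mouse in the wider set of genes was not counted. The 10 values therefore do not show that mouse 3 was an outlying library. The neutrophil sum of mouse 3 was 47.8 normalized counts against 2.59 to 7.53 in the others. It is made up of S100a8 at 20.9 (0 to 2.51) and S100a9 at 26.9 (1.73 to 5.37). These genes encode the subunits of calprotectin, abundant in neutrophils. Myoz2 was 685 (382 to 403), Fhl1 13500 (8410 to 9524) and Mybpc1 48577 (35152 to 38813). The share of Myoz1 in the calsarcins was 92.1% (93.5% to 93.9%), which shares the Myoz2 counts. Adrb3 had 10.9 counts (0 to 2.68). The share of Ryr1 in its family was 99.9884% (99.9793% to 99.9819%), and that of Pygm 99.8916% (99.9423% to 99.9562%), so both differed in the far decimals only.

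In mouse 1, Lep had 94.1 counts (7.21 to 15.7 in the others) and Mybph 3167 (1157 to 1697). In mouse 2, Impa2 had 323 counts (68.0 to 96.2), and in mouse 4, Itpr3 had 253 (62.3 to 71.7). The causes of these values were not tested.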

How the results depend on the processing

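Of 767 comparisons of 90 results under 16 settings, 572 stayed within a limit and 195 moved further. For most results the limit was the SD between the mice. Numbers of families or of marker lists were held to a fixed fold. The median SD was held to the SD of its values with 1 mouse left out. The choice of length and the reading of the values moved most. Shares follow in the order thick filament, thin filament, Z disc, calcium handling, creatine kinase, respiratory chain, citric acid cycle and translation factors. With the longest transcript they were 7.71%, 17.2%, 2.99%, 6.56%, 2.77%, 6.42%, 1.34% and 0.689%, and ribosomal proteins 3.01%. With the median of all coding transcripts they were 6.02%, 14.1%, 2.25%, 5.99%, 2.33%, 6.08%, 1.8% and 0.536%, glycolysis 10.1% and ribosomal proteins 2.75%. With no length correction they were 10.7%, 9.83%, 3.47%, 7.35%, 2.88%, 3.55%, 1.39% and 0.586%, glycolysis 6.64%, fatty acid genes 0.914% and ribosomal proteins 1.3%, so the thick filament then exceeded the thin. With the values read as plain log2 they were 6.69%, 15.41%, 2.54%, 5.31%, 2.24%, 6.6%, 1.19% and 0.577%, and glycolysis 7.43%. Under that reading the 10 leading genes held 23.1% of counts, 209.4 genes held 50%, the median SD was 0.13 and 3 marker lists exceeded 2-fold. The median SD was 0.15 with a pseudocount of 5, 0.19 with no minimum and 0.12 with a mean of at least 50. Leaving out 1 mouse gave a median SD of 0.142 to 0.147 and 3 to 6 marker lists over 2-fold. The cause of these moves was not tested. No paired analysis was possible because the results come from 1 group and from no test. Genes under about 30 counts are limited by depth.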
